A study of Mus musculus with 7 samples.

Results

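Mitosis and spindle checkpoint genes were examined as a set of 42 genes chosen by symbol, out of 24062 genes counted by RNA sequencing in 7 whole mouse spleens. All 42 were found in the table, and all passed the filter on low counts, with at least 124 counts for each in every library. The mutant group held 3 enlarged spleens from mice of genotype Vav1-iCre;Brca1F22-24/F22-24, in which a Cre recombinase under the Vav1 promoter acts in blood cells on a conditional Brca1 allele named for exons 22 to 24. The control group held 4 spleens labelled Brca1+/+ and C57BL6, with neither Cre nor an altered allele named, and mice of both groups were aged 2 to 3 months. The recombinase, the Brca1 allele, the spleen enlargement and any strain difference go together with the group and cannot be told apart. The labels give each library its own spleen but say nothing of litters or batches, so a p-value measures no more than the differences among these 7 spleens.

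These genes encode the machinery that divides a cell. Cyclin B with the kinase Cdk1 starts mitosis, kinetochores built on centromeres hold chromosomes to the spindle, and the spindle assembly checkpoint keeps the anaphase-promoting complex inactive until every chromosome is attached. Cdc20 then activates that complex, securin and cyclin B are destroyed, separase opens the cohesin rings, and the cell is cut apart. Many of the genes are transcribed in G2 and M phase through the MuvB complex with B-Myb and Foxm1, which is recruited to a CHR element near the start site, often beside CCAAT boxes bound by NF-Y. In a mouse spleen the dividing cells include erythroblasts of the red pulp and activated lymphocytes.

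RefSeq promoter windows (build GRCm38.p6, 250 bases before to 50 after a gene start) were matched by symbol for 33 of the 42 genes, which have 36 windows. In 30 of these genes a RefSeq start lay within 30 bases of the start in the deposited coordinates. The CHR letters TTTGAA or TTCGAA, searched on both strands, were found in 29 of the 36 windows (80.6%), against 19.2% of all 32851 windows. CCAAT, also on both strands, was found in 77.8% against 37.4% of all windows, and both motifs together in 72.2% against 7.52%. Counted by window, 27 of 39 CHR matches began within the 50 bases on either side of the start. Bub3, Prc1 and Ect2 have overlapping windows, so their matches count in each. Counted by gene, 26 of 33 had CHR letters, and 24 had a match within that distance of a start. The E2F letters TTTCCCGC, TTTCGCGC, TTTGCCGC or TTTGGCGC were in 1 of the 36 windows, that of Cdk1, against 2.26% of all windows. In the windows of 18 genes of DNA replication, which serve as a contrast, E2F letters were found in 45.5% and CHR letters in 27.3%. A match is a run of letters and not a measured binding site.

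The promoters below show this arrangement in genes whose levels are given further on, from 120 bases before to 30 bases after the start. CHR and CCAAT matches on either strand stand in capitals, and TTCAAA and ATTGG are the reverse strand forms. Ccnb1 is shown as a gene with paired CCAAT boxes and neither TTTGAA nor TTCGAA in its window. Other forms of the CHR element were not searched.
Cdc20 (chr4:118437314-118437463, minus strand): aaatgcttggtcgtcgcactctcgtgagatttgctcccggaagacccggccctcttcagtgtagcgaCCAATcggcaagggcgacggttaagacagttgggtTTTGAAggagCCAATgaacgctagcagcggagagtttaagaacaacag
Espl1 (chr15:102296173-102296322, plus strand): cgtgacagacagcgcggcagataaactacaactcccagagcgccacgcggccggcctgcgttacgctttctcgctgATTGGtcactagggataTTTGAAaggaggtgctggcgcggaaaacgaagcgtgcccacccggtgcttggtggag
Ttk (chr9:83834569-83834718, plus strand): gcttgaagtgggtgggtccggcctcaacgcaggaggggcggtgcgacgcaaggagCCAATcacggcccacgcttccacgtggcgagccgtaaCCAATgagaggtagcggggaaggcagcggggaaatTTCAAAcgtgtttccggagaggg
Bub1 (chr2:127831830-127831979, minus strand): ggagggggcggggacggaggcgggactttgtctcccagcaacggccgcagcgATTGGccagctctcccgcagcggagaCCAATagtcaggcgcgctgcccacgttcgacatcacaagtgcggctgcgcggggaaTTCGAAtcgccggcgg
Cdca8 (chr4:124936888-124937037, minus strand): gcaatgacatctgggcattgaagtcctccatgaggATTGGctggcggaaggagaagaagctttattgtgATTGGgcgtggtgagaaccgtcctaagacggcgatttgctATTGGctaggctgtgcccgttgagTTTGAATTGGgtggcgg
Hmmr (chr11:40733408-40733557, minus strand): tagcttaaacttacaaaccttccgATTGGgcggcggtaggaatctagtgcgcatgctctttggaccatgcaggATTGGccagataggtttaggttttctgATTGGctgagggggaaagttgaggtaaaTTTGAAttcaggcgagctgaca
Ccnb1 (chr13:100786457-100786606, minus strand): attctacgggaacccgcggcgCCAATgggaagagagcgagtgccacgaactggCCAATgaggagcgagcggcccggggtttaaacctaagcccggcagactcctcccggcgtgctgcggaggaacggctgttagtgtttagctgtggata
In Cdc20 the CHR letters began 18 bases before the start, and in Espl1 27 bases before it. In Ttk, Bub1, Cdca8 and Hmmr they began 8, 15, 14 and 9 bases into the transcript. In Cdca8 the CHR letters and a CCAAT box overlap. The 26 genes with CHR letters had a median log2 fold change of 1.78 between mutant and wild-type spleen, and the 7 without them 1.77. Among the 7, the RefSeq start lay 247 bases before the deposited start in Mad2l1 and 267 bases inside it in Pttg1. In Kif2c, among the 26, it lay 3852 bases inside. For these genes the windows do not show whether CHR letters lie at the deposited start.

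**Figure D1:**
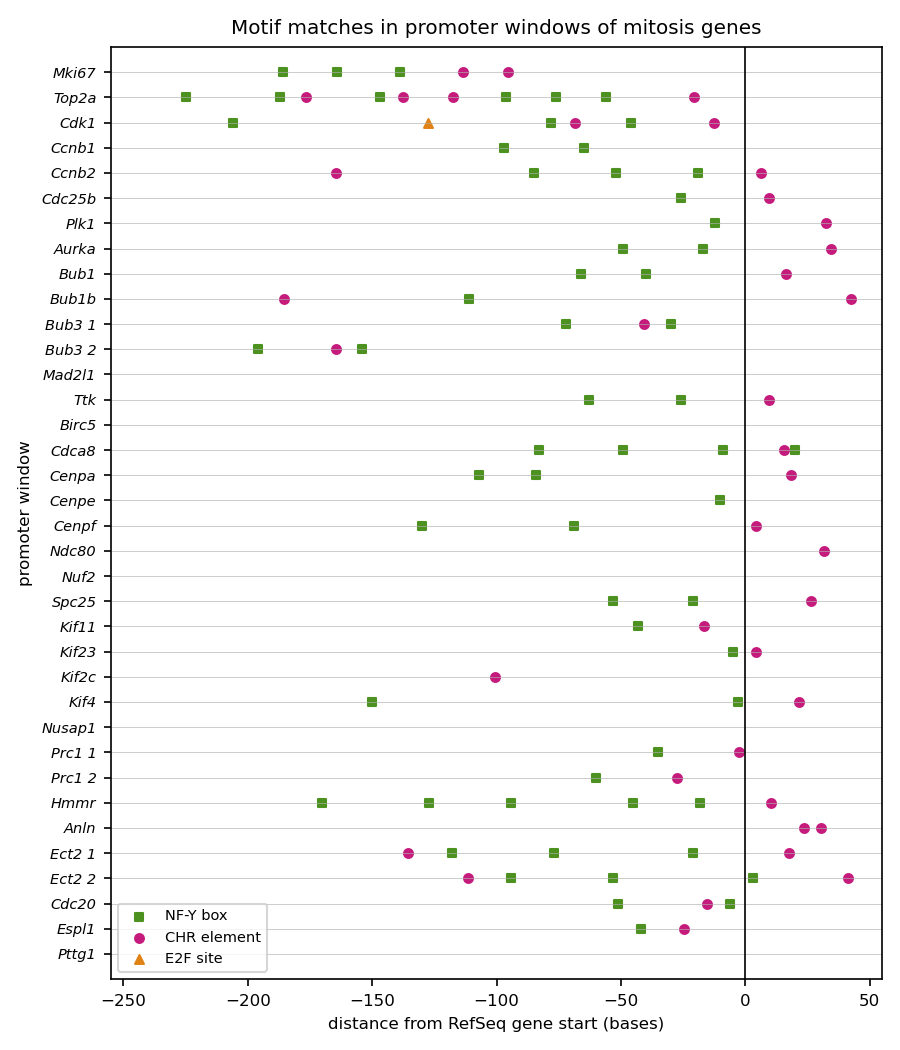
Position of CHR, NF-Y (CCAAT) and E2F letter matches in the 36 RefSeq promoter windows of 33 mitosis genes, in bases from the gene start; genes with 2 starts have 2 lines. CHR matches gather around the start and NF-Y boxes mostly before it, and 1 window, that of Cdk1, holds an E2F match.

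Total counts per library were 26889712 to 63612532, no pair of replicates had counts that agreed within sampling noise, and levels are given as CPM (reads of a gene relative to all reads of its library, with TMM scaling). Of 15188 genes tested with edgeR's quasi-likelihood test, 28.5% were called higher in the mutant at an adjusted p under 0.05 and 28.9% lower, and the median log2 fold change of all of them was -0.02. Scaling by library size alone moved that median to -0.26 and reversed the sign of no member. Brca1 itself stood at 67.6, 47.1 and 42.7 CPM in the mutants, against 46.2, 72.8, 15.7 and 20.2 CPM in wild-type 1 to 4, and gene-level counts cannot show a loss of exons. In wild type Brca1 was highest in spleens 2 and 1, as were the mitosis genes described next.

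Mitosis genes stood high and nearly level in the mutant spleens, and low to middling in wild type. Of the 42 members, 33 (78.6%) rose in the mutant, against 28.5% of all genes tested. The members were chosen with earlier results of these data known, so the contrast with all genes is a description and not a test. By edgeR 0 members fell, also 0 at an unadjusted p under 0.05 and 0 by DESeq2. All 33 rose at least 2-fold, so 78.6% of the members did so, against 17.2% of all genes tested. The median log2 fold change was 1.80. For 37 members every mutant spleen was above every wild-type spleen, which held for 29.2% of all genes. The 5 members whose groups overlapped were Mki67, Cdc25b, Prc1, Anln and Pttg1. Together the 42 genes took 0.928%, 0.961% and 0.785% of the counts of mutants 1 to 3, and 0.406%, 0.629%, 0.149% and 0.202% of those of wild-type 1 to 4. In whole-tissue RNA, more dividing cells and more RNA per dividing cell cannot be told apart.

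**Figure D2:**
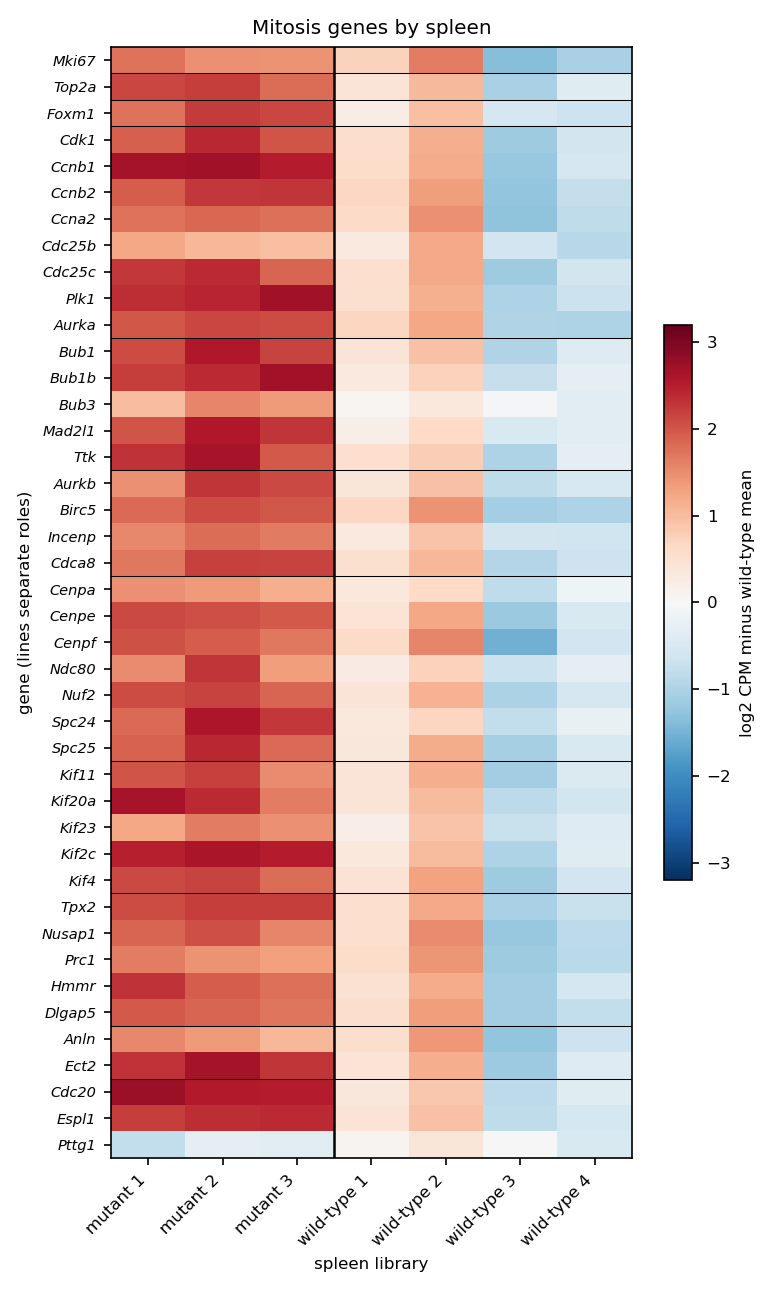
Level of each of the 42 genes in each spleen, as log2 CPM minus the gene's wild-type mean; horizontal lines separate the roles and the vertical line separates the groups. The mutant columns are uniformly red except for Pttg1, and wild-type spleens 1 and 2 lie above the mean and 3 and 4 below it, but for 1 gene in spleen 3.

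The wild-type spleens differed among themselves, with the same spleens at the top for every member. Wild-type 2 was the highest and wild-type 1 the next highest for 42 of 42 members, an order found for 14.9% of all genes tested. Wild-type 3 was the lowest for 36 members and wild-type 4 for the other 6. Relative to the wild-type mean, the median of the members was 0.43, 1.15, -1.0 and -0.56 on the log2 scale in wild-type 1 to 4, and 1.98, 2.20 and 1.86 in mutants 1 to 3. The highest wild-type spleen exceeded the lowest by 1.58-fold (Bub3) to 8.62-fold (Cenpf), with a median of 4.36-fold. Among mutants the same ratio ran from 1.08 (Ccna2) to 2.01 (Kif20a), with a median of 1.31. All 42 members had the wider ratio in wild type. This is the reverse of the genes at large: for the members the SD of log2 CPM had a median of 0.97 in wild type and 0.21 in the mutant, and for all genes tested of 0.20 and 0.39.

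Erythroid markers went with this order within wild type, and neutrophil precursor markers were likewise highest in spleen 2 and next in spleen 1. Summed over 17 erythroid markers other than globins, levels were 6898, 14553, 1155 and 1282 CPM in wild-type 1 to 4. In mutants 1 to 3 the same sums were 17436, 2573 and 3719 CPM, so mutants 2 and 3 were below wild-type 1 and 2 in erythroid markers and above them in mitosis genes. Of the 23 erythroid markers in the table, 0 were called in either direction by edgeR, 0 at an unadjusted p under 0.05 and 0 by DESeq2. Among the 23, 3 globin entries repeat the counts of another. Erythroid levels differed widely within both groups, so the lack of calls does not show equal levels. The part of erythroid cells in the mitosis gene levels was not tested.

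Summed over 14 immature T cell markers, levels were 2421, 4593 and 4634 CPM in the mutants, against 725 to 948 CPM in wild type, and these groups did not overlap. The sum mixes genes of unlike level. In each wild-type spleen its largest parts were Dtx1, Cd4 and Cd8a. Dtx1 stood at 159, 400 and 1210 CPM in the mutants, against 141 to 256 CPM in wild type. Rag1 stood at 190, 584 and 628 CPM in the mutants, against 1.08 to 1.37 CPM in wild type. Of the 14 markers, 11 rose and 1, Cd1d1, fell, where 28.5% of all genes tested rose and 28.9% fell. Hes1 and Cd4 did not pass. Cd4 stood at 89.2, 123 and 59.2 CPM in the mutants, below the 128 to 185 CPM of wild type (-0.70, SE 0.26, adjusted p = 0.0506). Levels of Notch1, a receptor needed early in T cell development, were 520, 1304 and 933 CPM in the mutants, against 91.9, 78.7, 80.7 and 78.1 CPM in wild type. The 10 mature B cell markers all fell, to sums of 109, 229 and 40.8 CPM from 4290 to 5743 CPM, so the wild-type libraries carry the B cell markers of a spleen and the mutant libraries carry few of them. Of 7 germinal centre B cell markers 4 fell and 1, S1pr2, rose. Of 8 neutrophil precursor markers 0 were called by edgeR, 0 at an unadjusted p under 0.05 and 0 by DESeq2. Their sums were 243, 318 and 6.02 CPM in the mutants, against 491, 818, 365 and 191 CPM in wild-type 1 to 4. Ms4a3 was at 0 in mutant 3. The part of these cell types in the mitosis genes was not tested.

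**Figure D3:**
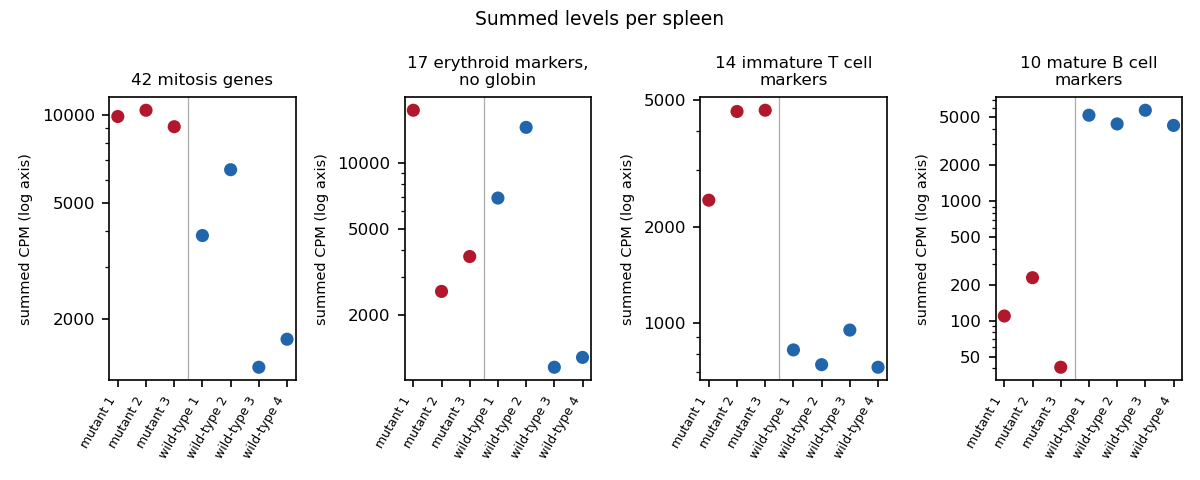
Summed CPM per spleen on log axes for the 42 mitosis genes and for markers of erythroid, immature T and mature B cells (mutants in red, wild type in blue). Mitosis genes lie at 9120 to 10388 CPM in the mutants, against 1360 to 6491 CPM in wild type, where they follow the erythroid markers from spleen to spleen.

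Spans of 3 members overlap a gene with more than 10% as many counts as their own, and strand use in counting is not given in the sources used here. These are Cdc20 with Elovl1, Kif20a with Brd8 and Cdc23, and Ccna2 with Exosc9, so their separate counts are uncertain.

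Among the regulators of mitotic entry, 6 of 8 members rose. Ccnb1, cyclin B1, stood at 267, 273 and 241 CPM in the mutants, against 63.2, 96.1, 18.3 and 29.0 CPM in wild type. The groups did not overlap and were apart by 2.33 on the log2 scale (SE 0.52, adjusted p = 0.00645). Its partner kinase Cdk1 rose from 61.0 ± 41.0 CPM (SD, n = 4) to 222 ± 42.6 CPM (SD, n = 3), or by 1.87 on the log2 scale (SE 0.51). Plk1, the polo kinase of centrosomes and kinetochores, rose by 2.26 (SE 0.49) and Aurka, the centrosome kinase, by 1.76 (SE 0.54) on the log2 scale. Plk1 levels were 169, 178 and 210.2 CPM in the mutants, against 46.7, 71.6, 16.5 and 20.2 CPM in wild type, so the lowest mutant was well above the highest wild-type spleen. Ccnb2, the other B-type cyclin, rose by 1.81 (SE 0.58, adjusted p = 0.0291) and passed in 11 of 17 alternatives. Cdc25c, a phosphatase that activates Cdk1, rose by 1.92 (SE 0.53). Ccna2, the cyclin of S and G2 phase, did not pass (1.38, SE 0.60, adjusted p = 0.0816), although its mutant values of 411, 444 and 419 CPM were above the wild-type values of 190, 340, 50.7 and 70.6 CPM. Cdc25b, a related phosphatase, did not pass either (0.85, SE 0.47, adjusted p = 0.158). It stood at 292, 258 and 244 CPM in the mutants, against 154, 286, 81.0 and 66.8 CPM in wild type, where spleen 2 was within the mutant range.

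All 5 members of the spindle assembly checkpoint rose, with a median log2 fold change of 2.18. Bub1b (chr2:118598211-118641592, plus strand), the checkpoint protein BubR1, stood at 227, 258 and 313 CPM in the mutants, against 60.3, 82.0, 29.4 and 39.1 CPM in wild type. The difference was 2.34 on the log2 scale (SE 0.34, adjusted p = 0.00111). Mad2l1, which binds and holds Cdc20, stood at 160, 234 and 192 CPM in the mutants, against 45, 61.1, 27.8 and 30.9 CPM in wild type (2.24, SE 0.29, adjusted p = 6.9e-04). Bub1 and Ttk, the kinases that start checkpoint signalling at kinetochores, rose by 2.11 (SE 0.43) and 2.18 (SE 0.42). Bub1 was at 110.1, 155 and 116 CPM in the mutants, against 34.5, 50.1, 13.4 and 19.7 CPM in wild type, and Ttk at 50.6, 62.7 and 39.5 CPM in the mutants, against 14.6, 17.3, 5.02 and 8.12 CPM in wild type. In both genes mutant 2 was the highest of all spleens. Bub3, the adaptor of Bub1 and Bub1b, rose least in this role, from 93.4 ± 17.7 to 230 ± 43.7 CPM (1.30, SE 0.20, adjusted p = 0.00133). It ran from 72.9 to 115 CPM in wild type, where its ratio of highest to lowest, 1.58, was the smallest of the 42.

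The chromosomal passenger complex corrects faulty attachments and later guides cytokinesis, and 3 of its 4 members rose. Aurkb, its kinase, stood at 90.2, 158 and 141 CPM in the mutants, against 42.6, 61.7, 18.4 and 22.8 CPM in wild type (1.84, SE 0.43). The scaffold Incenp and the targeting subunit Cdca8 rose by 1.52 (SE 0.38) and 1.80 (SE 0.47). Birc5, survivin, stood at 234, 286 and 263 CPM in the mutants, against 105, 179, 31.3 and 33.6 CPM in wild type, and missed the threshold (1.58, SE 0.59, adjusted p = 0.0516).

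Of the 7 centromere and kinetochore genes, 6 rose. Spc24, a subunit of the Ndc80 complex that grips microtubules, stood at 50.3, 86.0 and 69.0 CPM in the mutants, against 18.2, 23.0, 8.30 and 12.1 CPM in wild type (2.15, SE 0.36, adjusted p = 0.00182). The other 3 subunits, Ndc80, Nuf2 and Spc25, rose by 1.68 (SE 0.38), 1.82 (SE 0.47) and 1.82 (SE 0.50). Cenpa, the histone variant that marks centromeres, rose from 36.8 ± 14.7 to 86.8 ± 8.98 CPM (1.24, SE 0.31). Cenpe, a kinetochore motor, rose by 1.77 (SE 0.51). Levels of Ndc80 were 65.0, 112 and 57.5 CPM in the mutants, against 27.3, 38.0, 14 and 18.4 CPM in wild type, with mutant 2 apart from the other two mutants. Cenpf, a large kinetochore protein, did not pass (1.45, SE 0.64, adjusted p = 0.0838), with 219, 207 and 172 CPM in the mutants, against 81.2, 157, 18.3 and 35.1 CPM in wild type.

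Each of the 5 mitotic kinesins rose. Kif2c, which shortens microtubules at centromeres, stood at 82.1, 89.0 and 83.8 CPM in the mutants, against 18.6, 29.4, 7.39 and 11.2 CPM in wild type (2.35, SE 0.43, adjusted p = 0.00266). Kif20a, a kinesin of the central spindle, rose by 2.09 (SE 0.47), and Kif11, which pushes the spindle poles apart, by 1.68 (SE 0.50). Levels of Kif11 were 359, 401 and 253 CPM in the mutants, against 118, 199.5, 40.7 and 63.8 CPM in wild type, with mutant 3 nearest to wild type. Kif4, a chromosome-bound motor, and Kif23, a motor of the central spindle, rose by 1.73 (SE 0.53) and 1.33 (SE 0.37). Kif20a differed most among mutants, at 242, 201 and 120 CPM.

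Proteins that bundle or nucleate spindle microtubules were split, with 3 of 5 called. Tpx2, which activates Aurka on the spindle, stood at 288, 312 and 312 CPM in the mutants, against 97.1, 156, 32.6 and 41.2 CPM in wild type (1.90, SE 0.51). Hmmr and Dlgap5, spindle assembly proteins, rose by 1.75 (SE 0.51) and 1.52 (SE 0.55, adjusted p = 0.0453). Dlgap5 was near the threshold and passed in 8 of 17 alternatives. Nusap1, which stabilises spindle microtubules, differed by 1.45 on the log2 scale (SE 0.61, adjusted p = 0.0743) and Prc1, the bundler of the central spindle, by 1.10 (SE 0.58, adjusted p = 0.14), and neither passed. Nusap1 was at 263, 307 and 217 CPM in the mutants, against 105, 208, 31.6 and 41.0 CPM in wild type, with wild-type 2 just under mutant 3. For Prc1, wild-type 2 at 174 CPM was within the mutant values of 203, 174 and 162 CPM.

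In cytokinesis, Ect2, the exchange factor that sets the division plane, stood at 122, 156 and 121 CPM in the mutants, against 33.0, 54.6, 10.9 and 18.3 CPM in wild type (2.19, SE 0.49). Anln, anillin of the contractile ring, stood at 103, 90.9 and 74.0 CPM against 51.9, 91.8, 14.5 and 22.1 CPM and did not pass (0.99, SE 0.57, adjusted p = 0.174). Its wild-type 2 value was above those of 2 mutants.

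At the trigger of anaphase, 2 of 3 members rose. Cdc20 (chr4:118432901-118437343, minus strand, mm10) differed by 2.46 on the log2 scale (SE 0.38, adjusted p = 0.00138), with 169, 147 and 145 CPM in the mutants, against 32.5, 45.8, 13.9 and 19.3 CPM in wild type. Its separate count is uncertain because of Elovl1. Espl1, separase, rose by 2.15 (SE 0.41) to 149, 166 and 170 CPM from 43.7, 62.1, 18.3 and 22 CPM. Pttg1 (chr11:43420248-43426248, minus strand), securin, which holds separase inactive until anaphase, was the member with a value below 0 (-0.49, SE 0.24, adjusted p = 0.107). It stood at 20.2, 28.5 and 27.1 CPM in the mutants, against 37.1, 45.8, 34.8 and 24.6 CPM in wild type, where spleen 4 was within the mutant range. Pttg1 passed as lower with scaling by library size alone (-0.72, adjusted p = 0.017) and without wild-type 4 (-0.64, adjusted p = 0.0352); over all 17 alternatives its adjusted p ran from 0.017 to 0.533. Within wild type Pttg1 was highest in spleen 2 and next in spleen 1, as were the other members. It was lowest in spleen 4. Spleen 3 lay at its wild-type mean (0.0016 on the log2 scale), where the median of the members was -1.0. Its RefSeq start lies 267 bases inside the deposited span, and no CHR or CCAAT letters were found in that window.

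Of the 3 genes outside these roles, Foxm1, the transcription factor of G2 and M phase genes, rose from 46.5 ± 25.6 to 174 ± 30.1 CPM (1.91, SE 0.40). Foxm1 levels were 140.4, 199 and 183 CPM in the mutants, against 49.2, 81.7, 28.6 and 26.5 CPM in wild type. They did not overlap, and mutant 1 was the lowest of its group. Top2a, which untangles sister chromatids, rose from 278 ± 165 to 1007 ± 150 CPM (1.86, SE 0.45). Mki67 (chr7:135689788-135716379, minus strand), a coat of mitotic chromosomes used as a label of proliferation, missed the threshold (1.04, SE 0.68, adjusted p = 0.219). It stood at 2113, 1740 and 1702 CPM in the mutants, against 1056, 1981, 247 and 309 CPM in wild type. Wild-type 2 was above mutants 2 and 3, and without it Mki67 passed (1.79, adjusted p = 0.0346); over 17 alternatives its adjusted p ran from 0.00419 to 0.4.

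**Figure D4:**
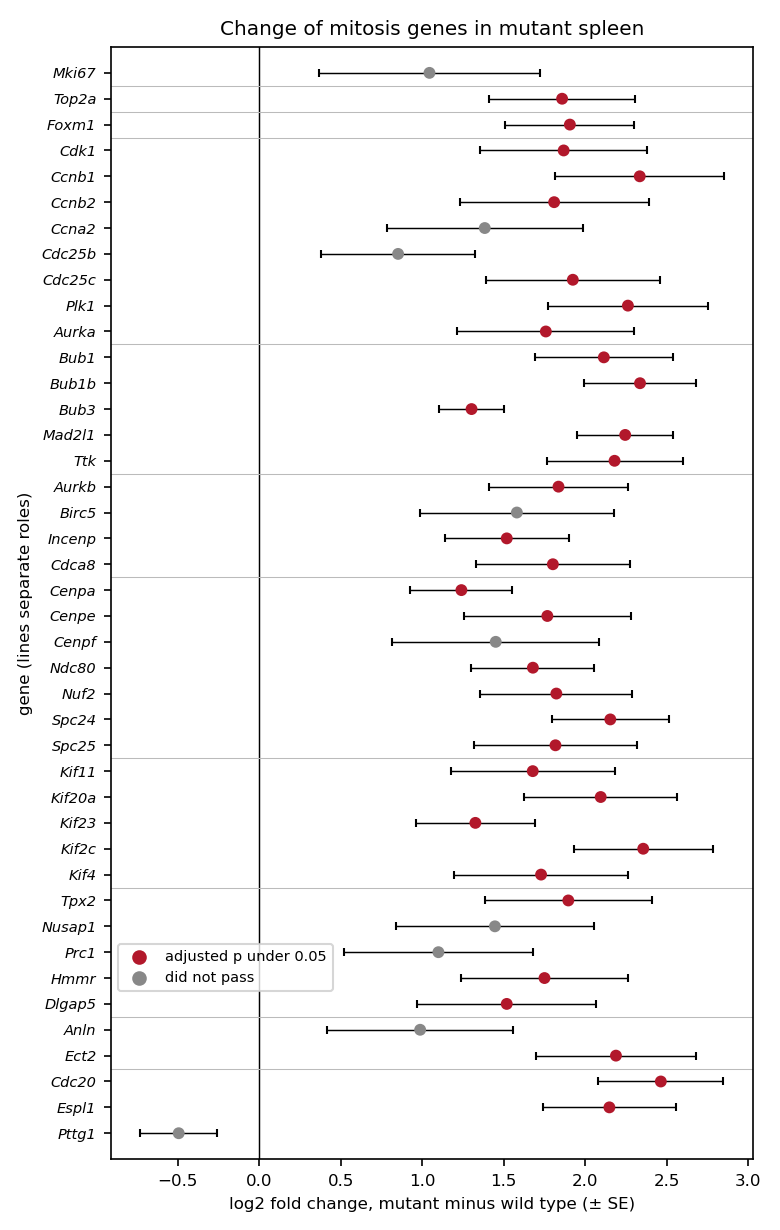
Log2 fold change, mutant minus wild type, with its SE for each of the 42 genes, from edgeR (3 mutant and 4 wild-type spleens); red points passed an adjusted p under 0.05. The 33 called genes lie between 1.24 and 2.46, and Pttg1 at -0.49 is the point left of 0.

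The mutant mean was a median of 1.92 times wild-type 2 over the 42 genes, from 0.552 for Pttg1 to 3.35 for Cdc20. Without wild-type 1 and 2, which carry the high erythroid markers and were left out after seeing the data, 41 members rose with a median log2 fold change of 2.82. In that fit 18.9% of all genes tested rose. Without wild-type 3 and 4 instead, 34 members rose with a median of 1.31, against 21% of all genes tested. Without mutant 2, 22 members rose, against 24.4% of all genes tested. The size of the change thus depended on which wild-type spleens were used.

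**Figure D5:**
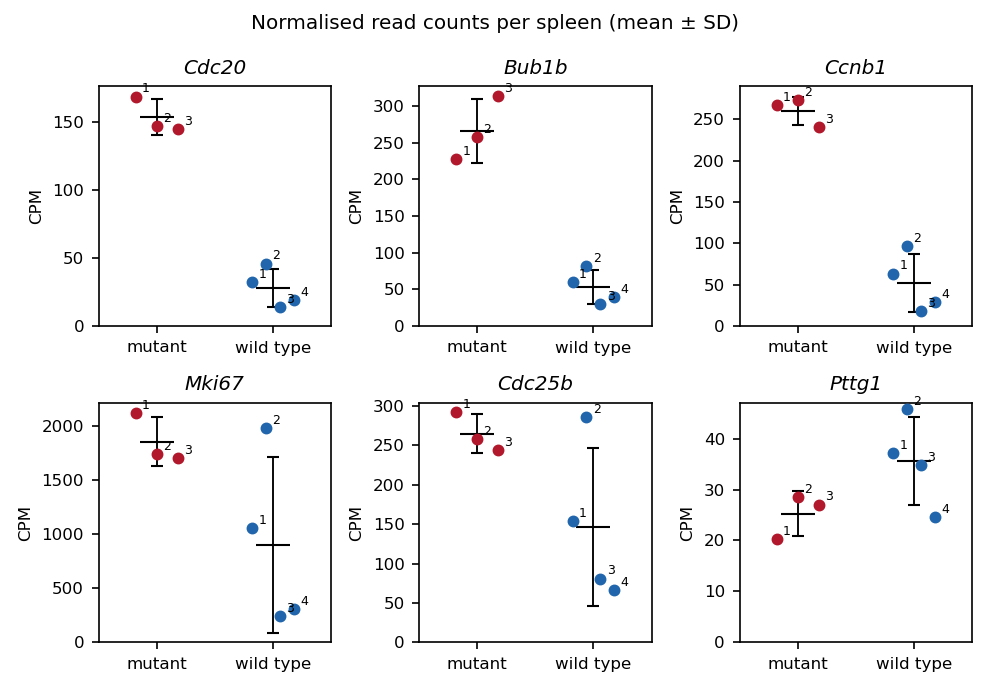
CPM of 6 genes in each spleen, numbered by replicate, with the group mean and SD (n = 3 and 4); axes start at 0. Cdc20, Bub1b and Ccnb1 are apart in the groups, wild-type 2 reaches the mutants in Mki67 and Cdc25b, and Pttg1 is lower in the mutant mean.

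Most other genes of mitosis outside the 42 rose too, in lists also chosen with earlier results of these data known. Counts of 0 that fell in these lists were 0 also at an unadjusted p under 0.05 and by DESeq2. Beside these lists, 28.5% of all genes tested rose, 17.2% at least 2-fold, and 28.9% fell. Of 38 further kinetochore and checkpoint genes, 33 rose, 25 of them at least 2-fold, and 0 fell, with a median log2 fold change of 1.44. Trip13, which recycles Mad2, stood at 37.5, 62.8 and 66.9 CPM in the mutants, against 10.1, 10.1, 5.91 and 8.27 CPM in wild type (2.70, SE 0.28), and Cenpw, a centromere protein, rose by 2.38 (SE 0.33). Of 25 genes of mitotic entry and the MuvB complex, 21 rose, 20 at least 2-fold, and 0 fell (median 1.78). Cdc25a, the third Cdc25 phosphatase, rose from 28.3 ± 4.90 to 115 ± 17.5 CPM (2.03, SE 0.18), and Bora, the activator of Plk1, rose by 2.10 (SE 0.21).

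Of 33 further spindle and cytokinesis genes, 25 rose, 20 at least 2-fold, and 2 fell (median 1.4). The count that fell was 1 with RLE scaling, with no filter, with the replicate block, and without any of mutants 1 to 3 or wild-type 1 to 3. Haus1, a subunit of the augmin complex that branches microtubules, rose by 1.66 (SE 0.17) and Sapcd2 by 3.22 (SE 0.35). Those that fell were Ttc28, at 9.42, 5.89 and 13.3 CPM in the mutants, against 30.4 to 32.0 CPM in wild type (-1.70, SE 0.27), and Numa1, the spindle pole protein, with a small difference (-0.41, SE 0.15, adjusted p = 0.0445). Of 18 genes of the anaphase-promoting complex and its cofactors, 13 rose, 7 at least 2-fold, and 0 fell, with the smallest median of these lists, 0.93. Its subunits Cdc16 and Anapc15 rose by 1.19 (SE 0.13) and 1.29 (SE 0.16), and Cdc16 was within 42.2 to 43.5 CPM in all wild-type spleens. Of 24 replication genes 22 rose, all at least 2-fold, and 0 fell (median 1.93), among them Rfc3 (1.83, SE 0.21) of the clamp loader and Gins2 (2.73, SE 0.35) of the replicative helicase.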

How the data were processed

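Total RNA of 7 spleens was sequenced, and the tools named per the submitters' processing notes are TopHat2 2.0.12, Subread 1.4.6 with featureCounts, edgeR and bcl2fastq 2.17.1.14, with build mm10. Strand use in counting is not given in the sources. Deposited files hold raw counts and a CPM table by gene, whose values per the file itself are the counts times 1 constant per library. Counts were tested with edgeR 4.0.16 in R 4.3.3 (quasi-likelihood test, TMM, filterByExpr, group as the only term, 3 mutant against 4 wild-type spleens), and every adjusted p is from that test by Benjamini-Hochberg over all 15188 genes unless named otherwise. A log2 fold change is the mutant level over the wild-type level, with SE as the log2 fold change over the square root of F. Log2 CPM used a prior count of 2. Total counts of 26889712 to 63612532 leave little counting error in these genes. The members and lists were chosen with earlier results of these data known. Named genes are all members and the 2 genes per direction with the smallest p in each other pathway list. Where marker genes are named, they are from the 2 highest of a list or those near 0 (Notch1, Ms4a3). Cd1d1, Cd4, Cd8a, Dtx1, Hes1, Rag1 and S1pr2 were chosen after their values were seen. Alternatives covered scaling, filter, tool (DESeq2 1.42.0, limma 3.58.1), unit, threshold, replicate number as a block and each spleen left out. Deposited starts were read as counting from 0. Motifs were searched in RefSeq windows. The 4455 genes with no count have no deposited CPM value.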

Additional observations from a re-analysis of the deposited data

How the results depend on the processing

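No alternative reversed a member's direction. Of 42 members, 22 were called in every fit at 0.05, leave-outs included. The count called higher was 32 to 39 over the other scalings, filter and tools, 17 at an adjusted p under 0.01, and 22 (without mutant 2) to 41 (without wild-type 2) with 1 spleen left out. Of all genes tested, 20.8% (library size alone) to 30.8% (DESeq2) were higher over the other scalings, filter and tools. With 1 spleen left out the share was 24.1% (without wild-type 1) to 32.7% (without mutant 1). Shares of all genes under 0.01, or called in every fit, were not counted. The count called lower was 0, and 1 (Pttg1) with library size alone or without wild-type 4, so leaving out 1 spleen gave 0 to 1. The median log2 fold change of 1.80 became 1.61 with library size alone, 2.12 with limma-voom, 1.99 with limma applied to the deposited CPM (log2, pseudocount 1), 2.82 without wild-type 1 and 2, 1.31 without wild-type 3 and 4, and 1.52 (without wild-type 3) to 2.30 (without wild-type 2) with 1 spleen left out. The cause was not tested, beyond the spleens removed. With the replicate number as a block 31 members (median 1.82) and 19.4% of all genes tested were higher. Spleens of the same number had deviations correlated at 0.04, -0.19 and 0.10, so the numbers are not taken as pairs. Genes higher in the mutant made up 49.7% of all calls, and 38.1% with library size alone. For the other lists the counts that rose stayed within 1.5 times of those reported. The 2 spindle and cytokinesis genes that fell became 1 with RLE scaling, with no filter, at an adjusted p under 0.01, with the block, without either wild-type pair and with 1 spleen left out (1 to 2), and the 0 mitotic entry and MuvB genes that fell became 1 with library size alone.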

Other observations

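Ratios within a library do not depend on its scaling. Mki67 over Cdc20 in CPM, a marker present through the cell cycle over one of mitosis, was 12.5, 11.8 and 11.8 in mutants 1 to 3, against 32.5, 43.3, 17.7 and 16 in wild-type 1 to 4, so each wild-type spleen was above each mutant. The summed CPM of the 42 mitosis genes over that of 24 replication genes was 1.56, 1.42 and 1.41 in the mutants, against 1.64, 2.25, 1.28 and 1.34 in wild type, and these groups overlapped. Both ratios were highest in wild-type 2, which had the highest erythroid sum of its group, 14553 CPM. Mutant 1 had a higher erythroid sum, 17436 CPM, with ratios of 12.5 and 1.56. The part of erythroid cells in these ratios was not tested. The pair of genes for the first ratio was chosen after values were seen. Cdc20 had a log2 fold change of 2.46 and Mki67 one of 1.04, so a lower ratio in the mutants follows from that choice. The separate count of Cdc20 is also uncertain because of Elovl1. A difference in cell cycle phase was not tested.

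Among the other mitosis genes, promoter windows with CHR letters made up 42.1% for kinetochore and checkpoint genes, 51.6% for spindle and cytokinesis genes, 36.4% for mitotic entry and MuvB genes and 25.0% for the anaphase-promoting complex, against 19.2% of all windows. Paired CCAAT boxes on the same strand, 31 to 34 bases apart from start to start, were in 19.4% of the windows of the 42 genes and in 0.895% of all windows; the spacing was chosen after the windows were seen.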
